A study of Homo sapiens with 22 samples.

Results

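The measurements described here are the Rad21 libraries of a chromatin time course in K562, a human leukemia cell line with wild-type genotype in the labels. Rad21 was profiled in 4 of the series' 22 libraries, 2 at 0 h and 2 at 72 h of treatment with 25 nM PMA, a phorbol ester that activates protein kinase C and is used to move this line toward a megakaryocyte-like state. The libraries were chosen by their antibody and time labels, and every region of the Rad21 count table on chromosomes 1 to 22 and X was kept, 107902 of 109111. The labels describe the 0 h cells with the same treatment text as the 72 h cells, at 0 min, and name no vehicle control. K562 is a single transformed line, and the labels do not say whether replicates were separate cultures, so p-values measure only the spread between these libraries, which may be technical.

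Rad21 is the subunit that closes the cohesin ring. Cohesin extrudes loops of chromatin and is halted at sites bound by the insulator protein CTCF, and it is also found at active enhancers and promoters. K562 cells have an erythroid-leaning programme, and PMA induces AP-1, a factor built from Jun and Fos family members that binds enhancers. The assay is abbreviated CNR in the labels and was taken as CUT&RUN, in which a nuclease tethered by an antibody cuts out the bound fragments. It was applied to fixed cells, here with 1% formaldehyde for 10 min. The study's question concerns chromatin loops in differentiation, and the comparison of 72 h with 0 h asks where cohesin occupancy differed.

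A minority of the changed regions lay at promoters, whose sequence can be shown. RefSeq windows of 300 bases (250 before to 50 after the start of transcription, GRCh38.p14) were searched on both strands for 3 motifs, whose matches may overlap at their ends. The AP-1 motif searched was TGANTCA, where N is any base. For the GATA factors, which drive erythroid and megakaryocyte genes, the letters were AGATAA or their complement. The last was the CTCF core motif. Of 8 promoters taken from strongly changed Rad21 regions, 4 gained and 4 lost, the 250 bases upstream of 4 are printed to show motif matches and 1 promoter without one, 5′ to 3′ on the gene's strand, with motif matches in capitals. HRH1 (histamine receptor H1, chr3:11136988-11137237, plus strand) and ADGRF4 (an adhesion G protein-coupled receptor, chr6:47698330-47698579, plus strand) gained Rad21. HEPACAM2 (a cell adhesion protein, chr7:93219572-93219821, minus strand) lost it. NETO1 (chr18:72867200-72867449, minus strand) gained it with none of the 3 motifs in these letters. Of the promoters not printed, the gained FCRLA and the lost SLC16A9 and TRPM4 held none of the motifs, and the lost GYPB held a GATA match only outside those 250 bases.
HRH1: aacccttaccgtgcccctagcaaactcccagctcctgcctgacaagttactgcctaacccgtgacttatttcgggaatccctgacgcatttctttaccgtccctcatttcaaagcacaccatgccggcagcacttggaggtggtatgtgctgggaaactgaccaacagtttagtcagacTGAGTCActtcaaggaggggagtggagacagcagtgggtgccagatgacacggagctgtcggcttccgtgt
ADGRF4: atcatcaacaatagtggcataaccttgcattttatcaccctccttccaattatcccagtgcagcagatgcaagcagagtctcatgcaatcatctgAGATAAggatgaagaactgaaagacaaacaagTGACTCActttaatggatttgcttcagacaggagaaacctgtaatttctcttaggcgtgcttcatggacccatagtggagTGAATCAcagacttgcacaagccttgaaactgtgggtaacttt
HEPACAM2: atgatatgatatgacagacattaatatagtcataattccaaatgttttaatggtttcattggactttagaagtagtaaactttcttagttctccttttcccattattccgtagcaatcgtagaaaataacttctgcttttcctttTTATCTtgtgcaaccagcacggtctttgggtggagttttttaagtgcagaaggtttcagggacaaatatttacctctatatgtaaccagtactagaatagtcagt
NETO1: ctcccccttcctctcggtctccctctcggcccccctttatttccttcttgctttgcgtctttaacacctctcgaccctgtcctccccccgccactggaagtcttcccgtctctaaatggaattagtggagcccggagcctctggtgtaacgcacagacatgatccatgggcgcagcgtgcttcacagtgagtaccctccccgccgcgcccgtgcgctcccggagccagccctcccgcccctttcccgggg

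Rad21 at the HRH1 promoter region had 22 and 16 counts before PMA against 124 and 65 after 72 h, which is 2.17 on the log2 scale (SE 0.33). The ADGRF4 region had 17 and 24 counts before PMA against 113 and 74 after 72 h. The HEPACAM2 region went from 190 and 110 counts to 31 and 34, or -2.28 on the log2 scale (SE 0.29). The NETO1 region went from 18 and 22 counts to 171 and 155, and it overlapped CTCF peaks of both libraries at 72 h but not at 0 h. These regions were chosen with groups that do not overlap. Of the 377 promoter windows that overlapped a Rad21 region called higher by at least 100 bases, 31.83% held the AP-1 motif, against 5.965% of the 10343 windows over any tested region and 7.677% of all 34961 windows. Of the 309 windows over a region called lower, 15.86% held the GATA motif, against 5.685% over tested regions and 10.32% of all windows. The CTCF core was in 5.57% of windows over higher regions and 2.589% over lower regions, against 3.5% over tested regions and 2.414% of all. A match describes letters in the window and not a bound site.

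The Rad21 libraries held between 4398797 and 7285286 counts in regions, of which 24.8% to 34.1% lay on the mitochondrial chromosome. The 0 h replicates stood further apart than the 72 h replicates in peak number, with 34680 and 59005 deposited peaks at 0 h and 33048 and 25687 at 72 h. Across tested regions, which are not independent, Pearson's r of log2 CPM was 0.852 between the 0 h libraries, 0.882 between the 72 h libraries and 0.597 to 0.623 between times. CPM here is counts scaled to a common library size after TMM. H3K27ac, a mark of active elements, was summed around marker genes as a check of the cell label. At 0 h the 8 erythroid K562 markers carried 2254 and 2277 CPM, 8 monocyte markers 687 and 737, 6 T-cell markers 225 and 235, 6 fibroblast or epithelial markers 230 and 243, and 6 B-cell markers 82.5 and 92.5. One T-cell marker and 2 B-cell markers were at 0.

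With TMM scaling, cohesin occupancy was higher at more regions than it was lower after 72 h. Of 82572 tested regions, edgeR's quasi-likelihood test with Benjamini-Hochberg adjustment called 12805 higher (15.5%) and 6596 lower (7.99%) at an adjusted p under 0.05. Both libraries of a group agreed, meaning that the groups did not overlap and that the libraries of each time lay within 2 times of each other, at 10536 higher regions (12.8% of those tested) and 5823 lower regions (7.05%). These are called gained and lost regions below. Among the other 3042 calls, 17 had overlapping groups and 3025 had a wider spread within a group. The median log2 fold change was 1.84 over gained and -1.37 over lost regions. At least 4-fold change was found at 4334 gained and 1010 lost regions. The split depended on scaling, since 66.0% of calls were higher with TMM and 48.7% with total counts, where the median of all regions moved from -0.06 to -0.25. Without the first 0 h library the calls lower fell to 2108, and without the first or the second 72 h library all calls fell to 8240 and 9379. No gained or lost region changed sign under any alternative in which it was tested.

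**Figure D1:**
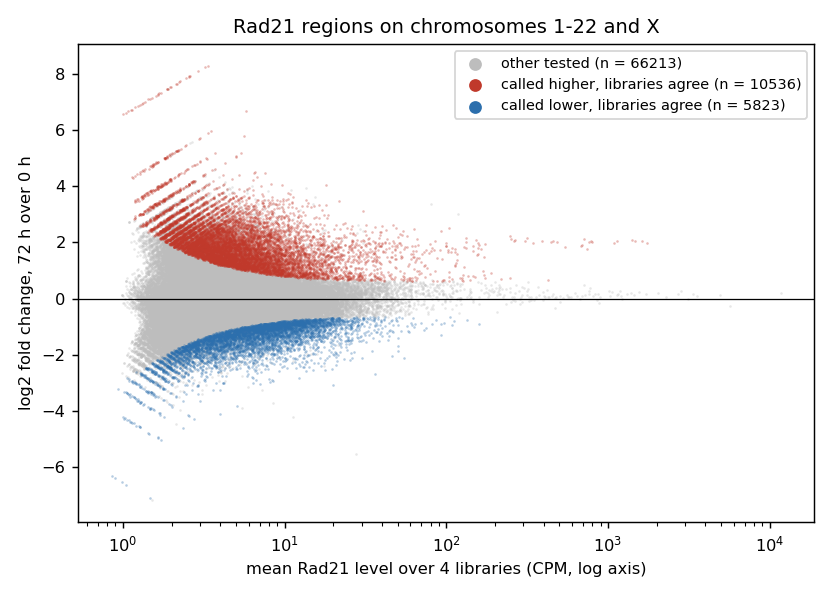
Each point is a Rad21 region tested on chromosomes 1 to 22 and X, with the mean level over 4 libraries (CPM, log axis) on the x axis and the log2 fold change of 72 h over 0 h on the y axis. The 10536 gained regions are red, the 5823 lost regions blue and all others grey.

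Gained regions had a median of 11 counts per library at 0 h and 42 at 72 h. Lost regions had a median of 48 counts at 0 h and 20 at 72 h, against 21 and 25 over all tested regions. Both sets were chosen by these counts, so the direction was fixed by the choice and the 0 h levels partly follow from it. Few changes lay at promoters. Among regions within 1 kb of a start of transcription, 6.30% were called higher and 4.03% lower, against 12070 and 6126 of the 70898 others. Gained regions had a median distance of 27498 bp to the nearest start and lost regions 23132 bp, against 22316 bp over all tested regions.

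The 10 named gained regions rose from between 3 and 17 counts in the first 0 h library to between 100 and 249 in the first 72 h library. The steepest lay in TMCO4 (a transmembrane and coiled-coil domain protein) at chr1:19750318-19750811, where 3 and 4 counts became 100 and 74. The change was 4.46 on the log2 scale (SE 0.45, edgeR adjusted p = 1.94e-06). A region in ARHGAP22 at chr10:48606850-48607266 went from 6 and 4 counts to 101 and 86. Both were chosen with groups that do not overlap. The most heavily covered was an intergenic region at chr6:14732499-14733265, 512803 bp from JARID2, a cofactor of Polycomb repressive complexes, where 17 and 6 counts became 249 and 164. Further regions lay in PPFIBP1 (8 and 10 to 132 and 100) and 69028 bp from PODXL, a sialomucin of the cell surface (9 and 5 to 116 and 72). Others were nearest to ZBTB40, FOXF1, ARSI and KLF7. None of the 10 overlapped CTCF peaks of both libraries at 0 h, and 1 did at 72 h.

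The 10 named lost regions had peaks in both 0 h libraries in 9 cases. The steepest was at chr19:21611447-21612470, 70778 bp from the zinc finger gene ZNF429, where 281 and 131 counts became 30 and 21. The change was -3.09 on the log2 scale (SE 0.30, edgeR adjusted p = 1.93e-06). The highest 0 h level was in LMBR1, the gene whose intron holds a limb enhancer of SHH, at chr7:156886108-156886905, where 475 and 243 counts became 68 and 51. LMBR1 was also the only one of the 10 with peaks left in both 72 h libraries. Regions in USP32 (102 and 60 counts to 12 and 10), in OOSP4A (153 and 89 to 19 and 17) and in ERC1 (167 and 116 to 22 and 30) fell as well. The others were nearest to ZNF33B, TCEAL8, SIMC1, PTH2R and HINT3.

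**Figure D2:**
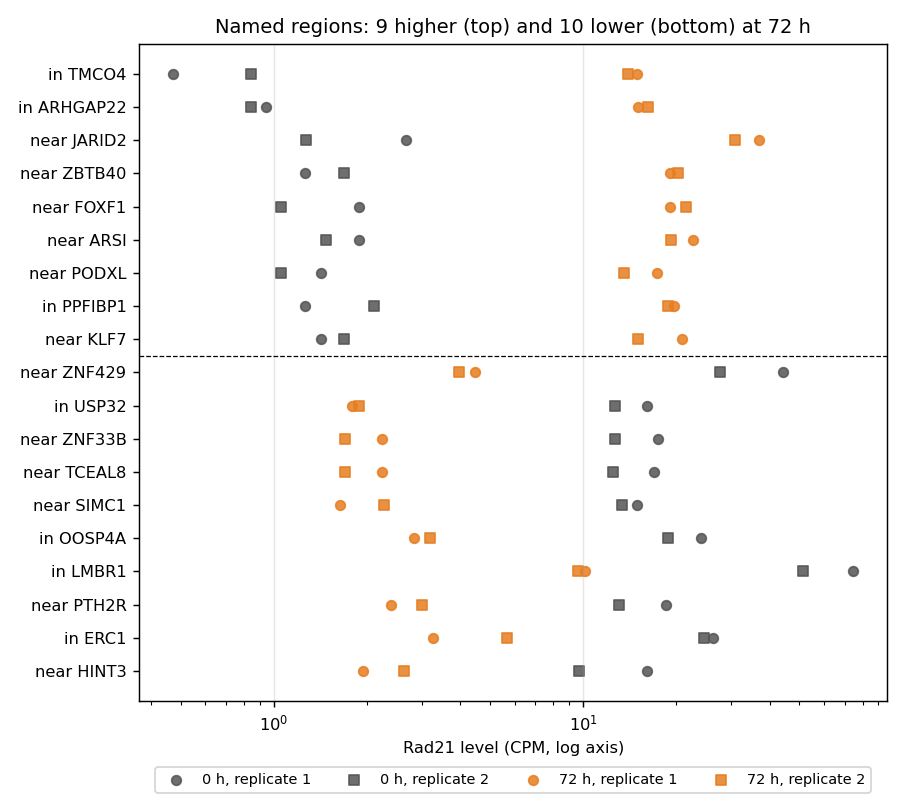
Rad21 level (CPM, log axis) of 19 named regions in each of the 4 libraries, grey for 0 h and orange for 72 h, with the gene that holds or lies nearest to each region. In every row the 2 libraries of one time lie apart from those of the other, which the choice of regions required.

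The other antibodies were read in the same places from their own libraries. All 10 named gained regions overlapped a Jun region and an H3K27ac region called higher at 72 h, against 12.2% and 20.6% of all tested Rad21 regions. Of the tested Jun and H3K27ac regions themselves, 28.1% and 43.5% were called higher. The backgrounds below are likewise shares of the tested regions of the antibody named. Of the 9 named gained regions that overlapped a tested CTCF region, 7 were called higher for CTCF, with a background of 4.05%. Of the lost regions, all 8 with a tested Jun region were called lower for Jun (background 25.4%), and all 9 with a tested H3K27ac region were called lower for H3K27ac (background 38%). The 1 lost region with a tested CTCF region was not called for CTCF.

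Over all gained and lost regions the 3 other antibodies moved the same way as Rad21 on the median. H3K27ac had a median log2 fold change of 2.86 at gained regions and -1.90 at lost regions, against 0.19 over its whole table. Jun had 0.86 at gained and -1.58 at lost regions, against 0.18. CTCF had 1.31 and -0.55, against 0.03, and 12.1% of its regions at lost sites were called lower, with a background of 2.76%. At 6 h, a time with no Rad21 library, these medians were already 1.79 and -1.14 for H3K27ac, 0.65 and -1.27 for Jun, and 0.95 and -0.24 for CTCF. At gained regions 78.5% of H3K27ac regions were called higher at 6 h (background 32.3%), 42.9% for Jun (13.2%) and 17.9% for CTCF (2.35%). At lost regions 78.4% of H3K27ac regions were called lower at 6 h (26.3%), 64.7% for Jun (12.2%) and 0.768% for CTCF (0.328%). The 6 h and 72 h comparisons share their 0 h libraries. Jun was not uniform at gained regions: of 9334 Jun regions there, 57.8% were called higher and 18.3% lower at 72 h. CTCF was called higher in 1086 and lower in 0 of 5008 regions at gained sites.

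**Figure D3:**
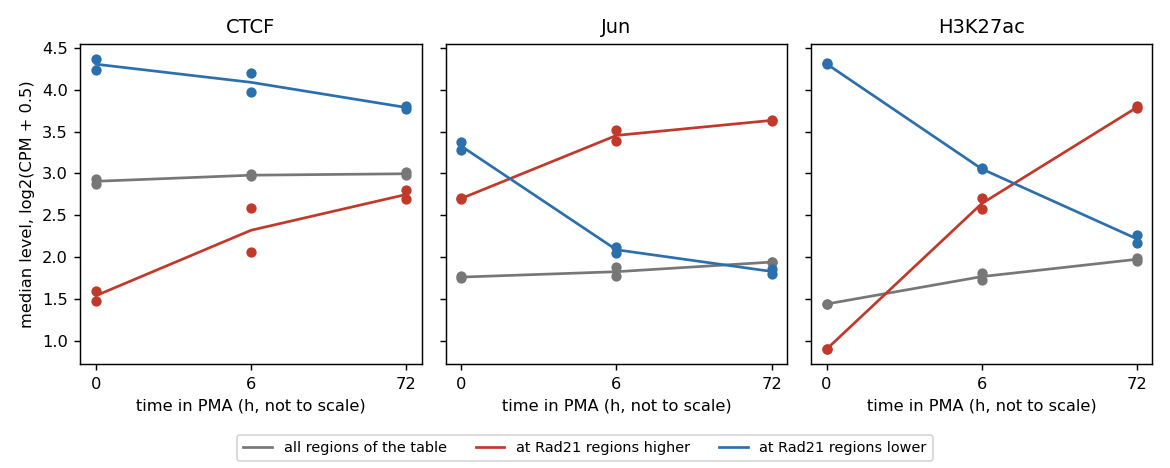
Median level, as log2(CPM + 0.5), of CTCF, Jun and H3K27ac at 0, 6 and 72 h, with a point per library and a line through the mean of both. H3K27ac at gained Rad21 regions (red) rose past its level at lost regions (blue) by 72 h, while its median over all regions (grey) went from 1.44 in both 0 h libraries to 1.99 and 1.96. The time axis is not to scale.

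Regions were then sorted by the peaks of the other antibodies at 0 h and 72 h, counting a peak only where both libraries had it. Peaks at 6 h were not used, so 0 h only means absent at 72 h, and 72 h only means absent at 0 h. Cohesin gain was most frequent where H3K27ac peaks were present at 72 h but not at 0 h: 50.1% of 12893 such regions were called higher and 0.970% lower. Over all tested regions the shares were 15.5% and 7.99%. Where Jun had peaks at 72 h but not 0 h and CTCF had none, 44.4% of 14257 regions were higher. This class held 47.5% of all gained regions and 17.3% of those tested. Loss was frequent where H3K27ac peaks were present at 0 h only, with 32.7% of 3916 regions lower and 0.817% higher, and 33.8% lower of the 3398 of them with no CTCF peak. Jun peaks at 0 h only went with 626 lower of 2322 regions.

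Gain was rarer at lasting CTCF sites than over all tested regions (15.5% higher, 7.99% lower), and loss was not. Where CTCF had peaks at both times, 4.10% of 15065 regions were higher and 10.8% lower, with a median log2 fold change of -0.31. At those with neither Jun nor H3K27ac peaks the median was -0.45, and 12.6% of 10090 were lower and 0.773% higher. They made up 20.6% of lost regions and 12.2% of those tested. A median near that was not particular to CTCF sites. Regions with no peak of the 3 antibodies at 0 h or 72 h had -0.42, with 7.74% of 23357 lower and 7.78% higher. Where CTCF peaks were present at 72 h but not 0 h, 24.7% of 3838 regions were higher, with a median of 0.33. Where they were present at 0 h only, 12.5% of 2667 were lower, with a median of -0.47. Regions with no CTCF peak at either time held 85.8% of gained and 67.0% of lost regions, and 73.9% of those tested. These are descriptions with no test of the classes.

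**Figure D4:**
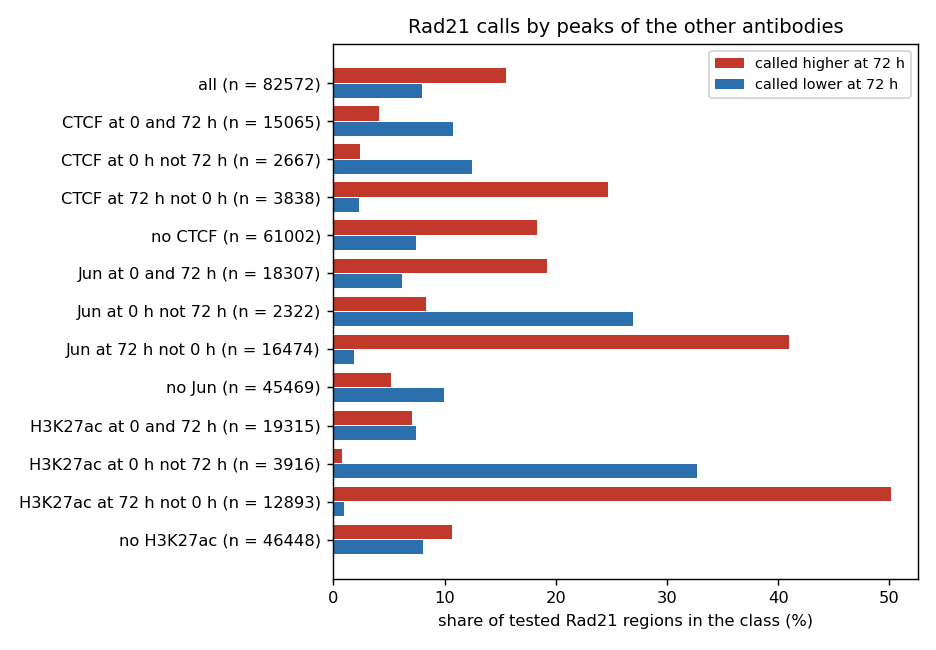
Share of tested Rad21 regions called higher (red) and lower (blue) at 72 h, by the presence of CTCF, Jun or H3K27ac peaks in both libraries at 0 and 72 h. The longest red bar is H3K27ac at 72 h not 0 h (50.1%) and the longest blue bar H3K27ac at 0 h not 72 h (32.7%).

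Some changed regions lay in runs. Neighbouring gained regions at most 20 kb apart formed 518 runs of 3 or more, which held 2064 of the 10536 gained regions, and lost regions formed 193, which held 690 of 5823. Among the 7 gained runs of 12 or more regions, 4 lay in repeated sequence, where reads cannot be placed uniquely. These were 24 and 19 regions in the ribosomal DNA repeats of chromosome 21 (chr21:8388219-8470055 and chr21:8205185-8260920) and 12 each in 2 stretches by the centromere of chromosome 1 (chr1:124532157-124657072 and chr1:122694423-122818511). Jun was lower at 72 h in all 56 and all 42 of its regions in the latter stretches, opposite to Rad21. Another run held 16 of 24 tested regions at chr6:14705993-14795099, around the named intergenic site by JARID2. Its summed Rad21 level went from 101 and 95.2 CPM to 279 and 257, and all 19 H3K27ac regions there were higher. The other two, tied at 12 regions with the stretches on chromosome 1 and named after their values were seen, were 12 regions around CDCP1, a transmembrane adhesion-linked protein (112 and 105 CPM to 266 and 234), and 12 around LINC02533 (27.8 and 25.3 to 133 and 116).

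The lost runs were shorter. The longest held 8 of 9 tested regions at chr6:146858206-146902857 in STXBP5-AS1, whose summed level went from 270 and 214 CPM to 89.8 and 89.0, and all 12 H3K27ac regions there were lower. Another 8 lay at chr4:10157761-10201447 near WDR1, an actin-disassembly factor (195 and 152 CPM to 94.1 and 89.2). Runs of 7 covered AK4 and DNAJC6 at chr1:65209098-65293552 (135 and 119 CPM to 53.6 and 53.2) and the ZNF429 neighbourhood at chr19:21593818-21626029 (114 and 88.4 to 25.5 and 21.3). A run of 6 lay near PDCD2 at chr6:170605780-170656178 (117 and 123 to 60.7 and 60.1).

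Counts were next summed per gene over the gene span and 10 kb on each side. Of 27874 genes tested, 3989 were called higher (14.3%) and 2698 lower (9.68%). Overlapping genes share regions and are not independent. Both gained and lost regions lay within 1250 genes.

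The genes with the largest gains included coding genes of several kinds. SPMAP2 went from 70 and 73 counts to 697 and 429, which is 2.88 on the log2 scale (SE 0.18). CCL2, a chemokine that attracts monocytes, went from 55 and 23 counts to 260 and 215, or 2.56 on that scale (SE 0.23). SLC24A3, a sodium, potassium and calcium exchanger, went from 133 and 97 to 630 and 639 through a single CTCF-bound region at chr20:19661604-19661979. CLDN5, a tight-junction claudin, rose 5.11-fold, LAIR2 5.70-fold and PTTG1IP2 5.28-fold. The other named gains were the noncoding NETO1-DT (7.75-fold), CNIH3-AS1, ARNT2-AS1, LINC02533, LINC00322 and LINC00973. Several of these folds depend on the window: with 50 kb on each side, the log2 fold change was 0.51 for CLDN5, 1.37 for LAIR2, 1.08 for PTTG1IP2 and 0.89 for LINC00973. NETO1-DT, CNIH3-AS1 and ARNT2-AS1 also moved down by over 1.5 times, to 2.16, 2.09 and 1.99. Within the gene span alone LAIR2 moved up to 4.19, LINC00322 to 3.27 and ARNT2-AS1 down to 1.96. The gained regions of SPMAP2, CCL2, CLDN5, PTTG1IP2 and NETO1-DT lay in the 10 kb beside the gene. The spans of these genes alone were not tested.

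Among genes with the largest losses, OOSP4A went from 508 and 335 counts to 74 and 71, or -2.58 on the log2 scale (SE 0.18). CA1, a carbonic anhydrase of red cells, went from 166 and 139 counts to 42 and 42. GYPB, a red-cell surface glycophorin, went from 753 and 435 to 208 and 205. MIR223HG, the host transcript of a myeloid microRNA, went from 296 and 176 to 113 and 55, a call lost within the gene span alone (-1.28 on the log2 scale). KRTAP10-6, SEPTIN8 and EPS15L1 and the noncoding LINC01140, LRRC7-AS1, LINC02235, LINC02513 and LINC02946 fell between 2.93-fold and 4.26-fold. With 50 kb on each side, EPS15L1 (-0.35), LINC02235 (-0.55), SEPTIN8 (-0.70), LINC02946 (-0.87), LINC02513 (-1.01) and LINC01140 (-1.31) moved toward 0 by over 1.5 times, and kept their calls. The lost region of KRTAP10-6 lay outside the gene span, which was not tested alone.

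Of 26 erythroid genes, 9 were lower and 2 higher, against 9.68% lower and 14.3% higher over all genes. The median log2 fold change was -0.35, against -0.02 over all genes. GYPB (-1.55, SE 0.16) and GYPE (-1.23, SE 0.16), members of the glycophorin family, were lower. Such near-identical copies may have their reads split uncertainly. At the GYPB start, Rad21 went from 315 and 169 counts to 69 and 50, and H3K27ac fell by 2.92 on the log2 scale. The fetal globins HBG1 and HBG2 share their regions and one value (-0.77, SE 0.19), whose call was lost without the first 0 h library or the second 72 h library. The embryonic globin HBE1, the GATA1 cofactor ZFPM1 and the membrane protein EPB42 were also lower. ALAS2, the first enzyme of haem synthesis in red cells, rose (1.16, SE 0.14). A CTCF-bound region in ALAS2 at chrX:55025803-55026182 went from 419 and 301 counts to 957 and 1038, while a region at chrX:54999654-55000486, over the start of the neighbouring gene APEX2, fell. AHSP, the alpha-globin chaperone, was the other gene called higher. The erythroid regulators GATA1 (-0.26) and KLF1 (-0.33) did not pass the test. The summed H3K27ac level of the erythroid marker list also fell, to 1167 and 1244 CPM at 72 h, while the B-cell list rose to 232 and 252, the fibroblast and epithelial list to 362 and 381, and the T-cell and monocyte lists stood at 184 and 189, and 647 and 690. The part of these shifts in the gene calls was not tested. Without the first 0 h library 4 erythroid genes were lower, and without the second 72 h library 5.

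Of 23 tested megakaryocyte and platelet genes, 8 were higher and 3 lower, against 14.3% and 9.68% over all genes. VWF, the adhesive ligand of platelet glycoprotein Ib, went from 38 and 46 counts to 165 and 119 (1.67, SE 0.25). Its 3 gained regions had Jun and H3K27ac peaks at 72 h and not at 0 h. The collagen receptor subunit ITGA2 (1.21, SE 0.21), the tetraspanin CD9, thromboxane synthase TBXAS1, the thrombin receptor F2R, THBS1, RUNX1 and ITGB3 were higher. ITGA2B, whose product pairs with that of ITGB3 in the platelet fibrinogen receptor, was lower (-0.63, SE 0.18), as were GP9 (-1.24) and the repressor GFI1B (-0.54). ITGB3 gained Rad21 at 3 regions and lost it at 1. The calls of ITGB3, THBS1 and ITGA2B were each lost by DESeq2 and without the first 72 h library, and that of CD9 without the same library. The ITGB3 call was also lost with total counts and without the second 0 h or 72 h library, THBS1 without the second 0 h library and within the gene span alone, where it turned to -0.23, and ITGA2B without the first 0 h library or with 50 kb around the gene. The median of the list was 0.05, and -0.01 with total counts. Without the first 72 h library 4 genes were higher and 0 lower, without the second 5 and 2, without the first 0 h library 8 and 0, and by DESeq2 5 and 0.

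Of 22 AP-1 and immediate-early genes, 10 were higher and 1 lower, against 14.3% and 9.68% over all genes. The others, FOS, FOSB, JUN, JUNB and JUND among them, were not called. BATF (1.18, SE 0.22) and MAFK (1.15, SE 0.22), both bZIP factors, ATF3 (0.80, SE 0.14) and EGR3 (0.99, SE 0.21) had the smallest p. FOSL1, FOSL2, NR4A1, NR4A3, KLF6 and IER2 were also higher and SRF lower. JUN itself, with 162 and 84 counts before and 137 and 105 after, was not called. MAFK stood at 0.48 with 50 kb around the gene. The gained region of EGR3 lay outside the gene span, which was not tested alone. Without the first 72 h library 6 genes of this list were higher. Among 24 genes of protein kinase C and feedback signalling, 5 were higher and 2 lower, near the shares over all genes (14.3% and 9.68%). PRKCE, a protein kinase C isoform that phorbol esters activate, went from 434 and 342 counts to 917 and 677, and the MAP kinase phosphatase DUSP4 from 63 and 51 to 142 and 111. DUSP1, SPRED2 and RASGRP1 were higher as well, RASGRP1 with a spread above 2 times within a group, and PRKCQ and SPRY4 were lower. The DUSP1 and SPRED2 calls were lost without the first 72 h library, and DUSP1 also by DESeq2.

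Of 25 adhesion, cytoskeleton and matrix genes, 12 were higher and 1 lower, against 14.3% and 9.68% over all genes. The median of the list was 0.48. FMN1, an actin-nucleating formin, went from 206 and 139 counts to 626 and 452 (1.58, SE 0.15) with 6 gained regions. The laminin receptor subunit ITGA6 went from 720 and 492 to 1774 and 1718. Most of that lay in a CTCF-bound region beyond its end at chr2:172508119-172508499 (495 and 330 counts to 1497 and 1494), and within the gene span alone the log2 fold change was 0.10 and not called. PLAU, the urokinase protease, rose by 1.43 (SE 0.20), a call lost with 50 kb around the gene, and CD44, the hyaluronan receptor, by 1.04 (SE 0.18). The actin crosslinker FLNA was lower.

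Genes of the cohesin machinery itself leaned the other way, with 7 of 18 lower and 1 higher. The shares over all genes were 9.68% lower and 14.3% higher, and the list median was -0.38. CTCFL, a germline paralogue of CTCF, fell most (-1.35, SE 0.19). The core subunits RAD21 (124 and 98 counts to 75 and 56) and SMC3, the STAG1 and STAG2 subunits, the loader NIPBL and the SMC3 deacetylase HDAC8 were lower. RAD21, with 2 tested regions, and HDAC8, with 8, were called on their sums and held 0 lost regions. CDCA5, which encodes sororin, the protector of cohesin on replicated DNA, went from 192 and 114 counts to 437 and 427 (1.47, SE 0.16), mainly at a CTCF-bound region at chr11:65060965-65061444, and stood at 0.69 with 50 kb around the gene. CTCF (0.39) was not called, though 2 of its 4 tested regions were gained. By DESeq2, or without either 72 h library, 2 of these genes were lower. RAD21 was not called in any of these 3 settings, HDAC8 by DESeq2 and without the first 72 h library, and STAG1 without the second.

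**Figure D5:**
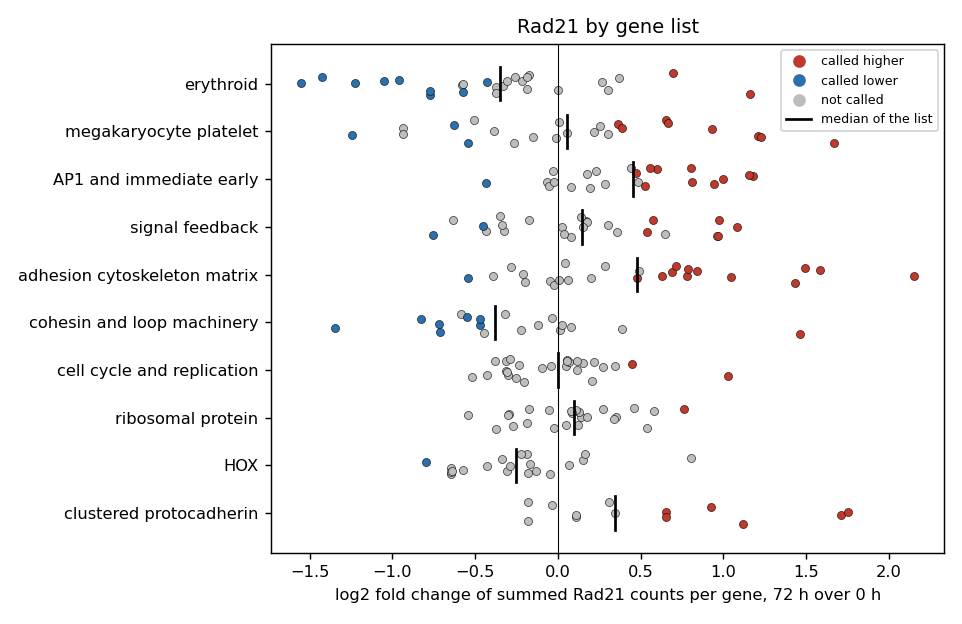
Log2 fold change of summed Rad21 counts per gene, 72 h over 0 h, for 10 gene lists, with red for genes called higher, blue for lower and grey for not called, and a black bar at each list's median. Adhesion genes (median 0.48) and AP-1 genes (0.46) lie to the right, erythroid (-0.35) and cohesin machinery genes (-0.38) to the left.

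Few genes of the cell cycle, ribosomal and HOX lists were called, against 14.3% higher and 9.68% lower over all genes. In cell cycle and replication, CDKN1A, the p21 inhibitor of cyclin-dependent kinases, went from 116 and 80 counts to 236 and 181, RRM2 was also higher and 0 of 26 were lower. Of 24 ribosomal protein genes only RPL13 was called, and of 20 HOX genes only HOXC13. The calls of RPL13, HOXC13 and RRM2 were lost by DESeq2 and without either 72 h library. In the clustered protocadherins 6 of 13 were higher, with a median of 0.34, all of the gamma cluster, whose genes share their 3′ exons and here the same 4 gained regions.

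Deposited peaks of the same 4 libraries gave a second view, which is not independent of the region counts. On chromosomes 1 to 22 and X, 20052 peaks were shared by both 0 h libraries and 6157 of them (30.7%) were absent from both 72 h libraries. At 72 h 16085 were shared and 4411 (27.4%) were absent from both 0 h libraries. Both 0 h libraries had more peaks than both 72 h libraries, and the exact two-sided permutation test gave the smallest p that 2 against 2 can give, which is above 0.05. Of 4289 tested regions with peaks in both 72 h libraries and neither 0 h library, 2914 were gained and 0 lost. Of 6007 with the opposite pattern, 2287 were lost and 0 gained. Many calls had no such pattern: 2154 gained and 576 lost regions overlapped no peak in any library, and 848 gained and 554 lost regions had peaks in all 4.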

How the data were processed

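Rad21 CUT&RUN libraries (2 at 0 h, 2 at 72 h) were compared. The deposited region table gives the authors' raw counts per region, with their log2 fold change and adjusted p-value. The deposited peak lists give each peak's fold enrichment and −log10 q per library. Per the submitters' processing notes, Trim Galore 0.4.3, BWA 0.7.17, SAMtools 1.9, deepTools 3.0.1, MACS2 and bedtools 2.26 were used, and both hg19 and hg38 are named. Positions beyond the end of chromosome 20 in hg19 place the tables on hg38. Coordinates are 1-based.

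Here the counts were fitted in edgeR 4.0.16 under R 4.3.3, using filterByExpr, TMM, glmQLFit and glmQLFTest over the whole table, without a replicate block, and regions off chromosomes 1 to 22 and X were then set aside. The SE is the log2 fold change over the square root of F. The other antibodies were fitted over all 3 times in their own tables. Peaks overlapped by at least 1 bp (GenomicRanges 1.54.1). Scripts were tested on simulated data with 200 planted 4-fold changes, of which 111 were recovered for Rad21 regions and 174 for genes. False calls were 2.63% for Rad21 regions and 5.95% for genes. They were 7.78% for Jun, 10.6% for CTCF and 13.5% for H3K27ac. Alternatives covered scaling, DESeq2 1.42.0, filters, gene windows and left-out libraries.

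Named regions were the 10 highest and 10 lowest log2 fold changes among agreeing calls with a mean CPM of at least 7.42 (the upper quartile) and a change of at least 1 without each library, 1 per 250 kb. Named genes were the 12 highest and 12 lowest agreeing calls at or above the median CPM, with symbols not starting with LOC, 1 per 250 kb. From each list the 4 called genes with the smallest p were named, plus GATA1, KLF1, HBG1, ITGA2B, ITGB3, THBS1, JUN, CD44, FMN1, RAD21 and CTCF. The 5 longest runs were named, with gained runs tied at 12 regions all given. Other list members called are given by name only or with values, and were chosen after their values were seen. The members and lists were chosen with earlier results of these data known. Some items that these rules name are not reported here. Sequences of regions away from promoters were not used here.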

Additional observations from a re-analysis of the deposited data

Results flagged for a closer look

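Outside chromosomes 1 to 22 and X, in sequence that the comparisons leave out, 1178 Rad21 regions were tested, and 101 of them were called higher at 72 h than at 0 h by edgeR, with 25 called lower.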

How the results depend on the processing

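The 20 named regions kept their direction and their call under each alternative that tested them, and the requirement of a mean count of at least 50 tested 13. Their choice required a log2 fold change of at least 1 in size without each library. Their direction with a library left out was therefore fixed in advance, and they are the most extreme regions. Counts of calls moved more. DESeq2 called 7387 regions (5706 higher, 1681 lower), and a mean count of at least 50 left 4759 (2441 and 2318). Total counts gave 10280 regions lower. Leaving out single libraries gave 8240 to 19706 calls, 6396 to 13191 higher and 1844 to 6515 lower. Agreeing calls were 6433 higher with a spread of at most 1.5 times, 9186 lower with total counts, and 4889 higher and 1561 lower by DESeq2. Runs of 3 or more numbered 830 and 361 at a gap of 50 kb. Genes called were 2417 higher and 1147 lower by DESeq2, 2489 and 1604 with no extension of the span, and 6022 and 4260 with 50 kb. Without single libraries they ranged from 2335 to 4064 higher and from 1235 to 2917 lower. The gene fit already used chromosomes 1 to 22 and X only, so that alternative was not run.

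Class medians with total counts were -0.50 for CTCF at both times, -0.66 at 0 h only, 0.14 at 72 h only, 1.14 for Jun at 72 h without CTCF, -1.15 for H3K27ac at 0 h without CTCF and -0.62 with none of them. With a stricter overlap, the CTCF classes at 0 h only and 72 h only had -0.53 and 0.19 and the H3K27ac class -0.84. With a −log10 q of at least 10, CTCF at 72 h only had 0.18, the Jun class 1.41 and the H3K27ac class -0.77. At gained and lost regions, total counts moved CTCF to 1.54 and -0.31, Jun to 1.42 and -1.02, and H3K27ac to 3.09 and -1.66. Fitting 0 h and 72 h only moved Jun to 0.77 and -1.67, and H3K27ac to 2.94 and -1.82. At that q limit the shared peaks numbered 2779 at 0 h only and 1402 at 72 h only.

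For the gene lists, these alternatives were chosen after seeing the data. Without single libraries, 1 to 3 erythroid genes were higher and 4 to 12 lower, 4 to 8 megakaryocyte genes higher and 0 to 4 lower, 6 to 10 AP-1 genes higher and 0 to 1 lower, 9 to 12 adhesion genes higher and 0 to 2 lower, and 1 cohesin gene higher and 2 to 7 lower. By DESeq2, 1 erythroid gene was higher, 5 megakaryocyte genes were higher and 0 lower, 0 AP-1 genes were lower and 2 cohesin genes were lower. With total counts 2 adhesion genes were lower. With no extension THBS1 (-0.23), RRM2 (-0.27) and RPL13 (-0.087) turned below 0. JUN ranged from -0.28 to 0.26 without single libraries, above 0 without the first 0 h library, and stood at 0.39 with 50 kb. The cause was not tested.

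Replicate numbers are shared between the times, but the labels do not say that they mark a batch, and the deviations of same-numbered libraries correlated at 0.0585 across regions. With the replicate number as a block, 21563 regions were called (13861 higher, 7702 lower), with 4673 genes higher and 3442 lower. The block changed no named call. Depth limits the weaker regions, since the median count per region was 15 to 20 in the 4 libraries.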

Other observations

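By chromosome, the share of tested Rad21 regions that were gained was 19.8% on chromosome 21, which holds the ribosomal DNA runs, and between 10.1% (chromosome X) and 14.5% (chromosome 16) on the others. The share lost was lowest on chromosome 20 (3.72%) and highest on chromosome X (10.0%), where gained and lost regions numbered 177 and 176.

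The authors' deposited table labels 1898 Rad21 regions up and 87 down, all with a log2 fold change there of at least 2.00 in size. Of these, 1875 and 87 lay on chromosomes 1 to 22 and X. All 1875 regions labelled up were called higher here, 1484 with agreeing libraries, and 86 of the 87 labelled down were called lower, 70 with agreeing libraries. The calls here had no fold limit, so the totals are not alike. At least 4-fold change was found here at 4334 gained and 1010 lost regions.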
